A study of Arabidopsis thaliana with 6 samples.

Results

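Transcript levels of 10 Arabidopsis thaliana genes of the iron-deficiency response were described in germinated seeds that were sensitive to desiccation (DS) and in germinated seeds in which desiccation tolerance (DT) had been re-established. The genes were the peptide genes IMA1 (AT1G47400), IMA2 (AT1G47395) and IMA3 (AT2G30766), the subgroup Ib bHLH factors bHLH38 (AT3G56970), bHLH39 (AT3G56980), bHLH100 (AT2G41240) and bHLH101 (AT5G04150), the bHLH factors FIT (AT2G28160) and PYE (AT3G47640), and the ubiquitin ligase gene BTS (AT3G18290). They were taken by locus from the 30509 genes of the array, and all 10 were measured on every array. The set was chosen from the difference between DT and DS in these same arrays, so its own differences are given as a description, without a test.

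All 6 arrays came from Col-0, with no mutant or transgene in either group, and each of the 3 biological replicates per group was a pool of whole germinated seeds at radicle protrusion. Seeds of both groups were kept wet for 72 h at 4 °C and then germinated at 22 °C under constant white light. DS seeds were used untreated. DT seeds were afterwards held for 3 d in the dark at 22 °C in a polyethylene glycol (PEG) solution of -2.5 MPa and rinsed. PEG, darkness and the 3 d of added time therefore cannot be told apart, and iron itself was not measured. Because whole seeds were pooled, fewer cells that express a gene and less transcript per cell cannot be told apart either.

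In plants short of iron, the IMA peptides act as positive signals for iron uptake, and the subgroup Ib factors pair with FIT to switch on the genes that reduce and import iron at the root surface. PYE, another bHLH protein, represses genes of internal iron movement such as NAS4, FRO3 and ZIF1, and BTS is a RING-type ligase that restrains the response by marking bHLH factors of subgroup IVc, and IMA peptides, for degradation. The IMA genes, the Ib factors, PYE and BTS are known for rising together when iron is scarce. Ferritin genes encode the iron storage shell, and some of them are known for falling in that state.

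IMA2 and IMA1 lie side by side on chromosome 1, and in the RefSeq annotation of TAIR10.1 each is a single exon with an open reading frame of 50 codons before the stop. IMA2 occupies chr1:17382998-17383830 and IMA1 chr1:17385707-17386485, both on the plus strand and 1876 bases apart. IMA3, at chr2:13107583-13110480 on the plus strand, has 3 exons and encodes 47 residues. The annotation lists all 3 as uncharacterized proteins, so the IMA names were assigned by locus. Their coding sequences are shown because the peptides are defined by a short C-terminal stretch rich in aspartate. Aspartate codons are in capitals, from the start codon to the stop codon on the plus strand.

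IMA1, chr1:17385818-17385970: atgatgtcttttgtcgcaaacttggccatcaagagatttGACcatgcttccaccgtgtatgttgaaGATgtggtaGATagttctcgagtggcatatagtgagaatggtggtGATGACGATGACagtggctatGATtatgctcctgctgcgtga

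IMA2, chr1:17383117-17383269: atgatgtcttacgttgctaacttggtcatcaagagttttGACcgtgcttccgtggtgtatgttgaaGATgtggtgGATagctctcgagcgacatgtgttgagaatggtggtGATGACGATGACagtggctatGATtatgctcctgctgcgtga

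IMA3, chr2:13108068-13108211: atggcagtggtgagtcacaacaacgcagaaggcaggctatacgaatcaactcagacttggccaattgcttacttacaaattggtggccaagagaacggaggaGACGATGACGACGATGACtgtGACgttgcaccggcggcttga

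The last 20 residues held 5 aspartates in IMA1, 5 in IMA2 and 7 in IMA3. The IMA1 and IMA2 peptides were identical at 41 of 50 aligned positions (82.0%), and IMA3 was identical to them at 42.9% and 44.4% of aligned positions. Copies this similar can share array signal. The IMA1 and IMA2 transcripts had 35 stretches of 25 bases in common, out of 755 in IMA1 and 809 in IMA2, and IMA3 shared none with either.

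The Ib factors bHLH38 (chr3:21084035-21085245) and bHLH39 (chr3:21086390-21087710) also stand next to each other, 1144 bases apart on the minus strand. Their proteins of 253 and 258 residues were identical at 80.6% of aligned positions, and their transcripts shared 31 stretches of 25 bases, out of 1058 and 1191. bHLH100 (chr2:17198037-17199454, minus strand, 242 residues) was 66.8% identical to bHLH39 and 61.8% identical to bHLH38, and its transcripts shared 8 such stretches with bHLH39. bHLH101 (chr5:1138410-1139633, minus strand, 260 residues) was the most distant of the 4, with 41.2% to 45.8% identity and no shared stretch. FIT (chr2:12004658-12006276), PYE (chr3:17567126-17569394) and BTS (chr3:6273966-6280562) lie on the plus strand and encode 318, 240 and 1254 residues.

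Since bHLH proteins bind the E-box, CANNTG, the 250 bases before each annotated gene start were searched on both strands, and the stretches around the palindromic form CACGTG and around CATGTG are shown, 5′ to 3′ on the strand of the gene, with those 6-base matches in capitals. They were read from the TAIR10.1 genome.

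IMA1, chr1:17385457-17385507: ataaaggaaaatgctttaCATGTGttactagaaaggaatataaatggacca

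IMA2, chr1:17382771-17382830: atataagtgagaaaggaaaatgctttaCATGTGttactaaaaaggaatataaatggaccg

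IMA3, chr2:13107449-13107508: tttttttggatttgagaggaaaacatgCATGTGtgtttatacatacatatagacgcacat

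bHLH39, chr3:21087745-21087804: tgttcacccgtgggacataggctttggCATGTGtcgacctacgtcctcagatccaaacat

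bHLH38, chr3:21085310-21085369: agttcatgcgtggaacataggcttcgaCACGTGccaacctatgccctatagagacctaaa

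bHLH100, chr2:17199513-17199572: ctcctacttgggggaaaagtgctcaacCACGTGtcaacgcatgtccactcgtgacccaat

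BTS, chr3:6273793-6273928: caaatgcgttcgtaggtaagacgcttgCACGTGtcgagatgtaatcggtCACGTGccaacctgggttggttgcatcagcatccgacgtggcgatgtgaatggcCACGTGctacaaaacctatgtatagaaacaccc

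CATGTG lay before IMA1, IMA2, IMA3 and bHLH39, at 232, 200, 107 and 67 bases from the gene start. It was present in 4 of 10 members and in 11.1% of the 25955 windows of the genome. CACGTG lay before bHLH38 at 97 bases, before bHLH100 at 91 bases and before BTS at 146, 124 and 70 bases, thus in 3 of 10 members against 6.7% of all windows. The shorter ACGTG, which is contained in CACGTG, was found in 6 of 10 members and in 23.2% of windows. CANNTG, which includes both 6-base forms, was found in 8 of 10 members and in 55.3% of windows. bHLH101 and PYE held no CANNTG in this window. These matches describe letters and not binding.

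The upstream stretches of the neighbouring pairs resembled each other. Over the 250 bases, IMA1 and IMA2 were identical at 191 of 217 aligned positions (88.0%) and bHLH38 and bHLH39 at 164 of 215 (76.3%). The next pair, bHLH38 and bHLH100, reached 66.2%, and the lowest pair, bHLH39 and PYE, 54.8%.

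All 10 members had lower signal in DT than in DS, and in none of them did the 3 DT arrays overlap the 3 DS arrays. Signals are log2 values of the normalized array, so a difference of -1 is a halving, and levels are compared only within a gene, because probes differ in brightness. Of all 30509 genes, 27.0% had every DT array below every DS array and 15.5% had every DT array above. The study's fold filter, a difference of at least 1 on the log2 scale with an unadjusted p of at most 0.05, was passed by 6 of the 10 members in the lower direction and by none in the higher. The same filter took 1.36% of all genes (415) as lower in DT and 0.862% (263) as higher. At a Benjamini-Hochberg adjusted p of 0.05 in limma, 19.9% of all genes were lower and 9.97% higher, and all 10 members were among the lower. Since the set was selected on this contrast, nothing is read from these counts. The median of the members' differences was -1.39, against -0.02 over all genes.

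The array holds 3629 annotated pseudogenes, and 95% of them had a mean signal below 4.96, a level that 65.1% of all genes also did not reach. All 3 DS arrays of 9 members were above it, and no FIT array of either group was. In DT, all 3 arrays of IMA2, PYE and BTS were still above 4.96, and 2 of the 3 IMA1 arrays. The DT arrays of IMA3 and of the 4 Ib factors were all below it, so their DT signal gives only an upper bound of the DT level. Differences and folds of such genes are differences of signal and lower limits of the change, and their sizes are not ranked against each other.

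**Figure D1:**
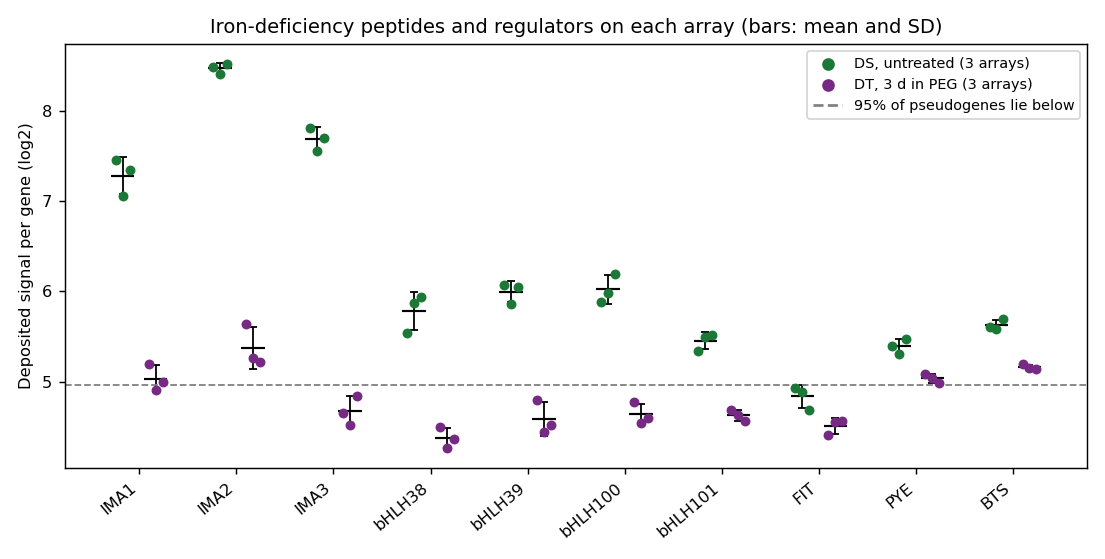
Log2 signal of the 10 members on each of the 3 DS and 3 DT arrays, with points for arrays, bars for the group mean and SD, and a dashed line at 4.96, below which 95% of pseudogenes lie. The DT points lie below all DS points of the same gene in all 10 members, by a wide gap in the IMA genes and by 0.12 in FIT.

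The IMA peptide genes had the largest differences in signal among the members. For IMA2, the DS arrays read 8.48, 8.41 and 8.52 in replicates 1 to 3, and the DT arrays read 5.64, 5.26 and 5.22. The lowest DS array thus stood 2.77 above the highest DT array, a gap far wider than the spread inside either group. The DS mean was 8.47 ± 0.06 and the DT mean 5.37 ± 0.23 (± SD over 3 arrays), a difference of -3.09 (SE 0.11) or 8.54-fold. In the order of all genes from the largest fall in signal, IMA2 was number 2, and the set was chosen on this same contrast.

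IMA3 read 7.81, 7.56 and 7.70 in DS and 4.65, 4.52 and 4.84 in DT. The groups were separated by 2.71, and the difference was -3.02 (SE 0.10), or 8.10-fold. With all 3 DT arrays below 4.96, this is a lower limit. IMA3 shares no stretch of 25 bases with IMA2 or IMA1.

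IMA1, the tandem partner of IMA2, read 7.45, 7.05 and 7.34 in DS and 5.19, 4.91 and 4.99 in DT. Its difference was -2.25 (SE 0.11), or 4.76-fold. Here too the groups did not overlap, with a gap of 1.86, but the difference in signal was smaller than that of IMA2 by more than the standard errors, with 1 of 3 IMA1 arrays in DT below 4.96. A common direction of IMA1 and IMA2 cannot be fully assigned to each gene, given the stretches they share.

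The 4 subgroup Ib factors, the partners of FIT, all ended below 4.96 in DT, so their differences are lower limits. bHLH38 read 5.54, 5.87 and 5.93 in DS and 4.50, 4.27 and 4.36 in DT, a difference of -1.40 (SE 0.11). Its neighbour bHLH39 read 6.07, 5.86 and 6.05 in DS and 4.79, 4.44 and 4.52 in DT, a difference of -1.41 (SE 0.10). The signal ratios were 2.65-fold and 2.66-fold, and in neither gene did the groups overlap.

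bHLH100, which lies on another chromosome, read 5.88, 5.98 and 6.19 in DS and 4.77, 4.54 and 4.60 in DT. Its difference was -1.38 (SE 0.09), or 2.61-fold. In all 3 of these genes the highest DT array was at least 1.04 below the lowest DS array.

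bHLH101, the most divergent Ib protein, read 5.34, 5.49 and 5.52 in DS and 4.69, 4.62 and 4.56 in DT. The groups were 0.66 apart and the difference was -0.83 (SE 0.06), or 1.77-fold. It was the only Ib gene that did not reach the fold filter. As its DT signal was below 4.96, this does not show a smaller change than in the other 3.

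FIT, the obligate partner of the Ib factors in root iron uptake, was the member nearest to no separation. It read 4.93, 4.89 and 4.69 in DS and 4.40, 4.55 and 4.56 in DT, so that only 0.12 lay between the lowest DS and the highest DT array. The difference was -0.33 (SE 0.08), or 1.26-fold.

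PYE read 5.40, 5.30 and 5.47 in DS and 5.08, 5.04 and 4.98 in DT. The groups were 0.22 apart and the difference was -0.35 (SE 0.06), or 1.28-fold. BTS read 5.60, 5.58 and 5.69 in DS and 5.19, 5.15 and 5.14 in DT, with a gap of 0.39 and a difference of -0.47 (SE 0.05), or 1.38-fold. PYE and BTS, which act as repressors, thus had lower signal in DT together with the genes of the positive arm, but by less than any IMA or Ib gene.

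**Figure D2:**
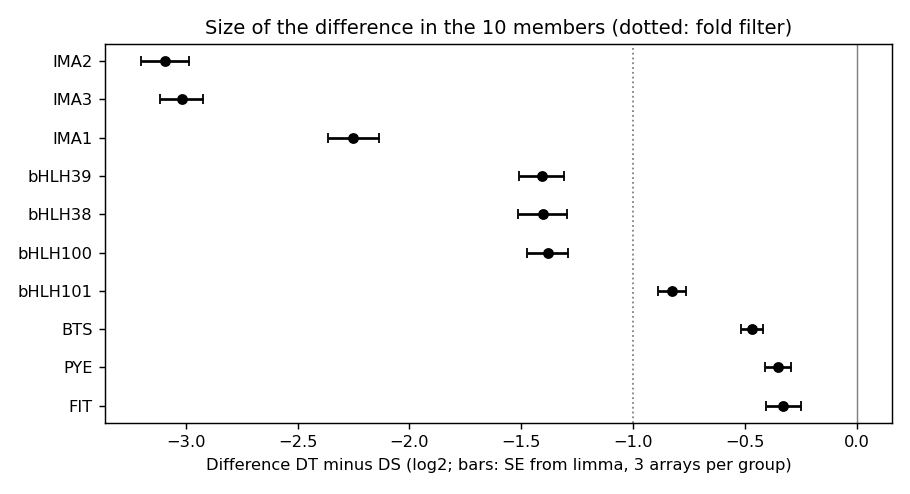
Difference of each member (DT minus DS, log2) with its standard error from limma, n = 3 arrays per group. In signal, the IMA genes lie between -3.09 and -2.25, the Ib factors between -1.41 and -0.83, and BTS, PYE and FIT between -0.47 and -0.33.

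Among the members with all 6 arrays above 4.96, IMA2 had the largest difference, and those of BTS and PYE were barely separated by their standard errors. The other 7 differences were not placed in an order of change, since at least 1 of their arrays was below that level.

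The order of the replicates was alike in some of the members. DT replicate 1 was the highest DT array in 8 of 10 members, whereas it was the highest in 30.0% of all genes. The exceptions were IMA3 and FIT, in which DT replicate 3 was highest. DS replicate 2 was the lowest DS array in 6 of 10 members, against 34.1% of all genes, and DS replicate 3 the highest in 6 of 10, against 45.2%. Leaving out any 1 array moved the difference of IMA1 only between -2.37 and -2.16, that of IMA2 between -3.23 and -3.02 and that of IMA3 between -3.11 and -2.94.

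Genes that act around the members were taken from lists of 50 loci by role, of which 47 were measured. Among these, the fold filter called 4 lower and 1 higher in DT, and limma with Benjamini-Hochberg adjustment called 13 lower and 5 higher. Over all genes, the filter took 1.36% as lower and 0.862% as higher, and the adjusted p 19.9% and 9.97%. The counts of each list below stand against these same shares. The median difference of the 47 was -0.02, the same as over all genes to 2 decimals. Only 19 of the 47 had a DS mean above 4.96, so a small difference or median need not mean an unchanged level. Genes of these lists that were not the largest rise, the largest fall or past the fold filter are named here after their values were seen. The 3 further IMA-type loci AT1G07367, AT1G09505 and AT1G07373 were not among the 30509 genes with values, so they could not be described.

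The list with most lower genes was that of nicotianamine, citrate and internal iron movement. Of its 10 genes, 6 fell at the adjusted p, none rose, and the median was -0.38. NAS4, a nicotianamine synthase that makes the chelator for iron transport within the plant, read 6.90, 7.20 and 7.29 in DS and 4.87, 4.63 and 4.69 in DT, a fall of 5.28-fold (log2 difference -2.40, SE 0.11, limma adjusted p = 3.83e-06). All 3 DT arrays of NAS4 were below 4.96, so this is a lower limit of its fall.

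OPT3, a transporter that loads iron into the phloem, fell from 6.53 ± 0.07 to 4.90 ± 0.10 (difference -1.62, SE 0.07, limma adjusted p = 2.21e-06). FRO3, a ferric reductase of mitochondria, fell from 6.22 ± 0.10 to 4.94 ± 0.04 (difference -1.27, SE 0.06, limma adjusted p = 4.37e-06). ZIF1, a vacuolar carrier for nicotianamine, fell by 0.67 (limma adjusted p = 2.41e-05). In DT, 1 of 3 arrays of OPT3, 1 of FRO3 and 0 of ZIF1 were above 4.96, so these falls may also be understated. NAS4, FRO3 and ZIF1 are genes that PYE is known to repress in roots. They were lower in the same arrays in which PYE was lower, and a link between them was not tested.

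NRAMP3, a vacuolar iron exporter used during germination, fell by 0.42 (limma adjusted p = 0.000503), and NAS3 fell by 0.35 (limma adjusted p = 0.0175). The NAS3 call was lost when DS replicate 2, DS replicate 3 or DT replicate 1 was left out, with adjusted p-values of 0.0561, 0.0550 and 0.0513. The largest positive difference in the list was that of NRAMP4, 0.10 (limma adjusted p = 0.303). NAS1, NAS2 and the citrate carrier gene FRD3 did not pass either, and none of their arrays was above 4.96.

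Of 8 genes for iron uptake and metal handling downstream of FIT, 1 fell and 1 rose at the adjusted p, and none passed the fold filter. The gene that fell was AHA2, a plasma membrane proton pump, from 6.80 ± 0.09 to 5.96 ± 0.10 (difference -0.83, SE 0.07, limma adjusted p = 6.42e-05). NRAMP1, a metal importer, had a difference of 0.24 with a limma adjusted p of 0.0492, which was lost without DS replicate 1 or 2 or without DT replicate 2 or 3 (adjusted p 0.125 to 0.155).

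IRT1, the root iron importer, read 4.59, 4.57 and 4.59 in DS and 4.55, 4.44 and 4.51 in DT. FRO2, the root surface ferric reductase, read 4.89, 4.86 and 4.92 in DS and 4.80, 4.85 and 4.73 in DT. Both genes, which the Ib factors and FIT are known to activate, stayed below 4.96 on all 6 arrays, and their differences of -0.08 and -0.10 did not pass (limma adjusted p = 0.272 and 0.195). In both genes every DT array was below every DS array, by 0.015 in IRT1 and 0.013 in FRO2. The list's median was -0.03 and turned to 0.01 when each array was centred on its own median. The same step took the median of all genes from -0.02 to 0.02.

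**Figure D3:**
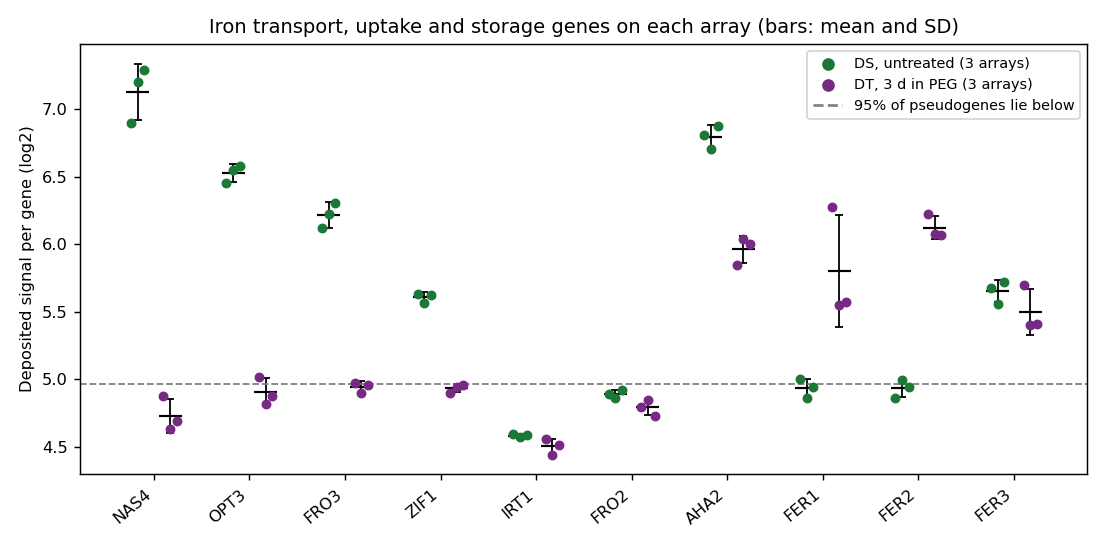
Log2 signal on each array for genes around the members, with points for the 3 DS and 3 DT arrays, bars for the mean and SD, and the dashed pseudogene level. NAS4, OPT3 and FRO3 fall in DT, FER1 and FER2 rise, and IRT1 and FRO2 stay below the pseudogene level of 4.96 in both groups.

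Among 10 further bHLH factors that regulate iron genes, 3 fell and 2 rose at the adjusted p. bHLH115, a subgroup IVc factor that is a known activator of the Ib genes and of PYE, fell from 6.17 ± 0.09 to 5.17 ± 0.07 (difference -1.0, SE 0.06, limma adjusted p = 1.55e-05). It stood at the edge of the fold filter, and 5 alternatives took it under 1, to between -0.99 and -0.89, with no loss of the adjusted call.

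The other IVc factors did not all move the same way. bHLH34 fell by 0.37 (limma adjusted p = 0.000959), ILR3 rose by 0.33 (limma adjusted p = 0.00225), and bHLH104 had a difference of -0.02 (limma adjusted p = 0.791). bHLH121, which works together with the IVc factors, had the largest rise, from 5.57 ± 0.08 to 6.18 ± 0.05 (difference 0.61, limma adjusted p = 0.000111). NAI1, a bHLH factor of the IVa subgroup, fell by 0.51 (limma adjusted p = 0.00322). The list's median of -0.0085 turned to 0.03 with each array centred on its median, a step that shifts the differences of all genes alike.

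Of the 2 genes related to BTS, AT1G74770 fell by 0.30 (limma adjusted p = 0.00114) and AT1G18910 had a difference of 0.02 (limma adjusted p = 0.801). Neither had an array above 4.96. In the list for coumarin synthesis and export, whose products mobilize iron outside the root, 2 of 8 genes fell and none rose. These were the acyltransferase gene AT1G28680, with a difference of -0.52 (limma adjusted p = 0.000383), and the glucosidase gene BGLU42, with -0.32 (limma adjusted p = 0.000676). In DT, 0 of 3 arrays of AT1G28680 and 1 of 3 of BGLU42 were above 4.96. The largest positive difference was that of MYB10, at 0.02 (limma adjusted p = 0.768).

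Among the iron storage genes, FER2 and FER1 were higher in DT. Of 9 genes, 2 rose and none fell at the adjusted p, against 9.97% and 19.9% of all genes. The median was -0.0021, and only 1 of the 9 had a DS mean above 4.96. FER2, the ferritin gene of seeds, rose from 4.93 ± 0.07 to 6.12 ± 0.09 (difference 1.19, SE 0.06, limma adjusted p = 6.93e-06) and was the only gene of all the lists past the fold filter in the higher direction. FER1 read 5.0, 4.86 and 4.94 in DS and 6.28, 5.55 and 5.57 in DT (difference 0.86, SE 0.18, limma adjusted p = 0.00754). DT replicate 1 was the high array, and without it the difference was 0.62. In DS, 1 of 3 arrays of each ferritin gene that rose was above 4.96, so both rises may be understated. FER3 had a difference of -0.15 (limma adjusted p = 0.262), the lowest of the list.

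**Figure D4:**
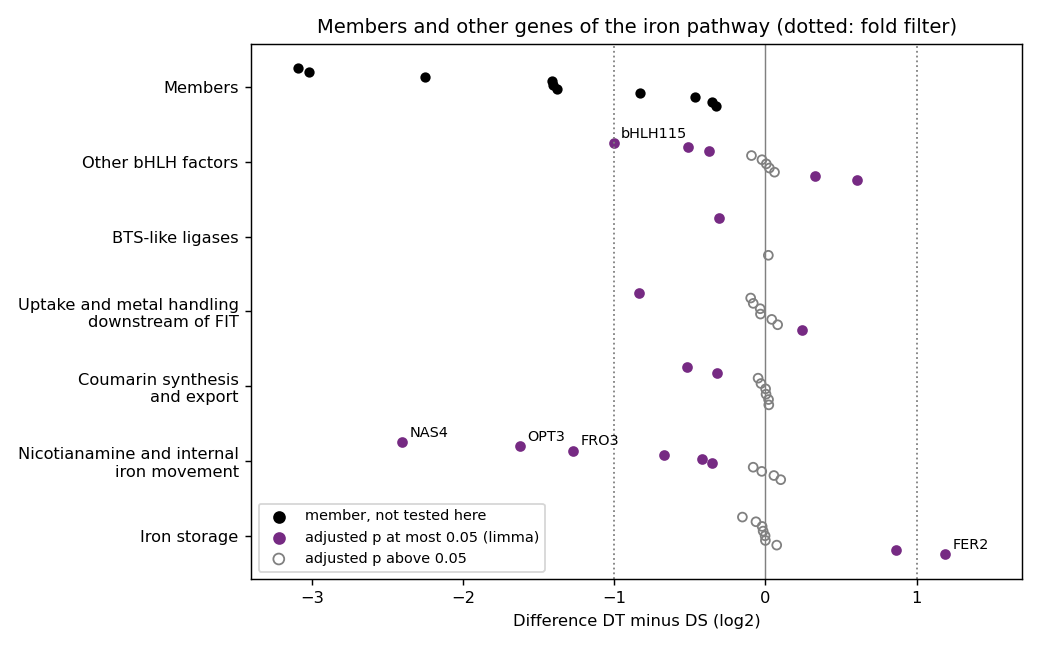
Difference (DT minus DS, log2) of the members and of the 47 measured genes around them, by list, with each point a gene, filled violet where limma's adjusted p was at most 0.05, black for members, and open otherwise. The members and the nicotianamine and internal movement list extend to the left, to -3.09 and -2.40, and FER2 stands at 1.19 on the right.

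The members' changes were not shared by all genes beside them on the chromosomes. Of 32 distinct genes within 2 positions on either side of a member, 2 passed the fold filter as lower and 1 as higher. Over all genes these shares were 1.36% and 0.862%. The median difference of the 32 was -0.0013. Only 14 of the 32 had a DS mean above 4.96, and a fall in the others would be hard to see. At limma's adjusted p, 10 were lower and 2 higher, against 19.9% and 9.97% of all genes. bHLH100 had both kinds near it. ORS1 (AT2G41230), 2339 bases away, fell from 5.68 ± 0.07 to 4.46 ± 0.10 (limma adjusted p = 7.03e-06), and the late embryogenesis gene M17 (AT2G41260), 6997 bases away on the other side, rose from 5.10 ± 0.07 to 8.95 ± 0.09 (limma adjusted p = 8.07e-08). AT3G18280, a gene of the lipid-transfer protein superfamily 6317 bases before BTS, fell by 1.14 (limma adjusted p = 0.000427). Below the fold filter, and named after their values were seen, SIP2;1 near bHLH38 fell by 0.84 (limma adjusted p = 1.98e-05) and AT5G04160 beside bHLH101, itself at -0.83, fell by 0.77 (limma adjusted p = 2.27e-05).

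**Figure D5:**
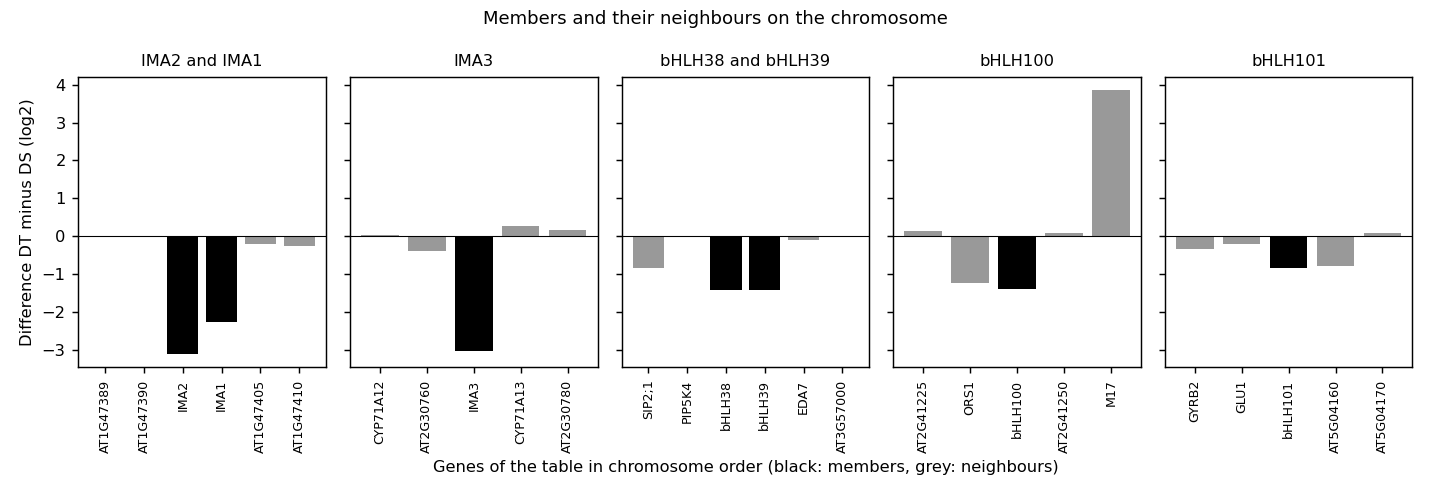
Difference (DT minus DS, log2) of the 7 IMA and Ib genes (black bars) and of the 2 genes on either side of each or of each pair (grey bars), in gene order. The IMA1 and IMA2 pair and the bHLH38 and bHLH39 pair stand below their flanking genes, and M17 rises to 3.85 beside bHLH100. The genes shown beside the IMA1 and IMA2 pair, and PIP5K4 beside bHLH38, had no array above 4.96. A fall in them would be hard to see.

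Genes on the opposite strand overlap 3 of the members, and whether the array summary used strand is not given in the sources used here. IMA3 shares 639 bases with AT2G30760 (difference -0.38) and 572 bases with CYP71A13 (0.28). bHLH38 shares 386 bases with PIP5K4 (-0.01), and bHLH101 shares 79 bases with GLU1 (-0.21). The members themselves stood at -3.02, -1.40 and -0.83. At limma's adjusted p, AT2G30760 (0.0152) and GLU1 (0.0138) were lower, CYP71A13 (0.00386) was higher and PIP5K4 (0.917) did not pass. AT2G30760, PIP5K4 and GLU1 had no array above 4.96, so their small differences do not tell whether signal was shared.

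Over the 6 arrays, the mean profile of the 7 IMA and Ib genes, each centred on its own mean, was compared with that of every other gene by Euclidean distance on the log2 scale. The nearest were AT5G54970, an uncharacterized protein (distance 0.08), AT4G23680, of the polyketide cyclase and lipid transport family (0.15), ARAB-1, a GDSL lipase (0.20), OMT1, an O-methyltransferase (0.20), and HTA11, a histone H2A (0.21). Their differences ran from -2.01 to -1.79, around the profile's own mean difference of -1.91. Of the members, IMA1 was closest to the mean profile, at 0.48. With 2 groups of 3, this distance mostly measures how alike the size of the fall is.

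The 6 arrays were alike within groups and apart between them. Medians were 4.76 to 4.78 in DS and 4.72 to 4.73 in DT. Across genes, pairs of DS arrays correlated with a Pearson's r of 0.972 to 0.977, pairs of DT arrays with 0.957 to 0.975, and a DS array with a DT array at 0.798 to 0.819. Marker lists of tissues were read as mean log2 signals per array. The mean log2 signal of 6 root epidermis and root hair markers, where FIT and IRT1 act, was 4.79 to 4.86 in DS and 4.68 to 4.76 in DT, with 2 markers above 4.96 in DS and 1 in DT. The ranges were 5.90 to 5.98 against 5.51 to 5.64 for 3 protoderm markers, 4.89 to 4.98 against 4.72 to 4.85 for 3 root stele markers and 6.36 to 6.49 against 6.01 to 6.07 for 4 green cotyledon markers. For 3 endosperm markers, 1 of which fell and 2 of which rose (differences from -1.91 to 1.21), the DT range of 6.39 to 6.85 enclosed the DS range of 6.65 to 6.74. The ranges were 4.84 to 5.05 against 8.31 to 8.46 for 4 mature seed embryo markers. The part of these values in the members' differences was not tested.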

How the data were processed

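The authors hybridized RNA of 3 DS and 3 DT pools to the Affymetrix Arabidopsis SNPtile array. They deposited log2 values per locus, based on TAIR9 annotation, and their methods state quantile normalization. The values per locus were not equal in distribution, with array medians of 4.76 to 4.78 in DS and 4.72 to 4.73 in DT. Probe summarisation and background treatment are not given in the sources used here. These values were used without further scaling. No column was left out, and 30078 of 30509 loci matched the RefSeq TAIR10.1 annotation, which gave positions and sequences. DT was compared with DS over all 30509 genes with limma 3.58.1 in R 4.3.3 (moderated variance, prior degrees of freedom 3.71), with Benjamini-Hochberg adjustment over all genes. On simulated arrays with independent noise and no signal floor, the fold filter recovered 200 of 200 genes changed by 1.5 with 1 other call. This checks the fit for large changes only, and not the calls of smaller differences at the adjusted p. Precision is limited by the 3 arrays per group, for which an exact permutation test cannot go below p = 0.1.

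The members and lists were chosen with earlier results of these data known. Named were all 10 members, in each list the largest rise, the largest fall and any gene past the fold filter, neighbours past that filter, and the 5 genes nearest in pattern. Alternatives were ordinary variance, an intensity trend, arrays centred on their median, repeated quantile normalization, the dimmer genes left out, a replicate block and each array left out.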

Additional observations from a re-analysis of the deposited data

How the results depend on the processing

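Every member stayed lower in DT under each alternative that kept it (FIT was dropped with the dimmer genes). Ordinary variance, the intensity trend, the replicate block and leaving out dimmer genes cannot alter a member's difference. Centring adds the same amount to the difference of every gene. Of all 119 alternative values, with these included, 117 moved by less than the replicate SD. The exceptions came from repeated quantile normalization, with PYE at -0.26 and BTS at -0.37. That setting called 318 genes lower and 324 higher by the fold filter, against 415 and 263, while 6 members stayed past it. With any 1 array left out, 399 to 444 genes were lower and 259 to 274 higher, with 6 members and 3 to 4 pathway genes among the lower. Of 215 values for the 18 called pathway genes, 12 lost the adjusted call and none reversed. These were 7 for NRAMP1, 4 for NAS3 and 1 for FER1, whose adjusted p was 0.0811 with ordinary variance.

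Replicate numbers gave no clear pairing of the samples. Deviations of same-numbered arrays correlated at 0.06, -0.01 and 0.10, and those of differently numbered arrays at -0.13 to 0.07. With 3 arrays per group, such values cannot show that a pairing is absent. With the replicate block, 415 genes were lower and 264 higher, with 6 members among the lower and 4 pathway genes lower and 1 higher. Of the 18 called pathway genes, the only ones compared with and without the block, NRAMP1 lost its call (adjusted p = 0.0518) and the other 17 kept theirs. Signals near the pseudogene level limit what can be said of FIT, IRT1, FRO2 and AT1G74770, of the DT levels of IMA3, the Ib factors, NAS4, OPT3, FRO3, ZIF1 and AT1G28680, and of the DS levels of FER1 and FER2. The same limit holds for every other pathway gene with no array above 4.96, among them NAS1, NAS2, FRD3, AT1G18910 and MYB10. Their small differences do not show an unchanged level.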
